A study of Oryza sativa with 4 samples.

Results

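RFL antisense panicles were set against wild type panicles of the rice cultivar TP309 on 2 2-colour Agilent arrays, chosen by their labels from the 4 arrays of the series. RFL is the rice counterpart of LEAFY, the transcription factor that gives young meristems their floral fate in Arabidopsis, and in rice it is known for its part in panicle branching. The tested panicles carried a transgene that makes RFL antisense RNA, and the others came from untransformed TP309 plants. Array 1 had antisense RNA in Cy5 and wild type RNA in Cy3, and array 2 had the dyes exchanged. The source labels of the antisense RNA say branching panicles for array 2 and panicles for array 1. The titles of both arrays name the branching panicle. The other 2 arrays held RFL dsRNAi panicles against wild type. They shared the fit's estimate of spread, counted in the filter of probes and served for comparison. The promoter of the transgene, the number of lines and the number of plants per pool are not given in the sources used here.

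The design text calls the RNA pools independent, but the labels do not settle whether the arrays of the dye-swap pair had separate pools. All p-values therefore measure the spread between arrays, which may be technical. Of 21495 cDNA probes that were not controls, 17789 and 16106 stood well above background in the antisense channel of arrays 1 and 2, against 16040 and 17270 in the wild type channel. 18000 probes could be tested. No description named RFL itself (0 probes), so the level of the targeted gene was not analysed here. Probes carry the accession of a rice cDNA and a description that often names the nearest relative from another plant, and several cDNAs of 1 gene count apart. In whole panicles, fewer cells of a type and less RNA per cell cannot be told apart.

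Values are log2 ratios of antisense over wild type, so a positive value means more RNA in antisense panicles. Limma called 3398 probes higher (18.9% of those tested) and 3296 lower (18.3%) at a Benjamini-Hochberg adjusted p below 0.05, 37.2% in all. The median over all tested probes was 0.0012. With the antisense arrays averaged into 1 value, 2213 were called higher and 2331 lower, and with median centring of each array in place of the intensity-dependent loess fit 465 higher and 372 lower. Of the called probes, 2369 differed by less than 1.5-fold, 1080 were at least 2-fold higher (6.0%) and 1098 at least 2-fold lower (6.1%). Differences of 8-fold or more were found for 141 probes higher and 100 lower. The arrays gave like ratios across probes (r = 0.933, a description over probes that share both samples), with a median absolute difference of 0.175 between them. All 1809 probes beyond 2-fold on both arrays had the same sign on both, and 0 had opposite signs.

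**Figure D1:**
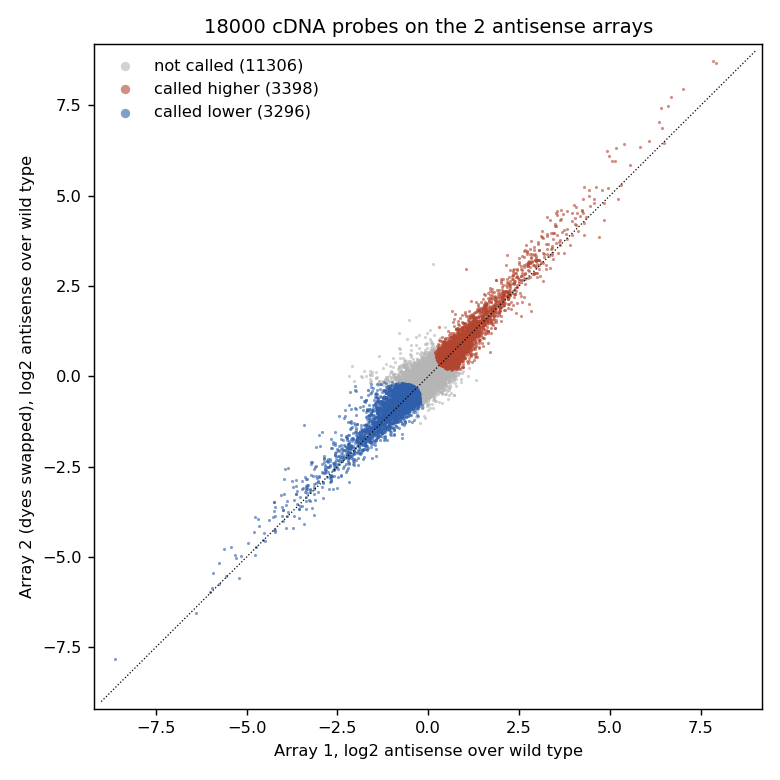
Log2 ratio of antisense over wild type on array 1 (horizontal axis) and on array 2 with dyes exchanged (vertical axis), 1 point per tested probe. Red points are the 3398 probes called higher, blue points the 3296 called lower and grey points the rest; the dotted line marks equal values, and the points far from 0 lie along it.

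The wild type RNA of these arrays also stood apart from that of the dsRNAi arrays. In a fit of the separate channels, wild type levels differed between the antisense and dsRNAi arrays for 5896 probes (32.8%), and transgenic levels differed for 497 (2.76%). Of the antisense calls, 3567 (53.3%) fell on probes whose wild type level differed in this way. The arrays of the constructs were scanned on different days with different versions of the extraction software, which cannot be told apart from the construct. The wild type difference, antisense arrays less dsRNAi arrays, is therefore given beside many results. For the 13 process lists whose median was more than 0.2 from 0, it is given with the list. In the other 30 lists it lay between -0.184 and 0.151. Its part in the antisense ratios was not tested.

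Of 43 process lists made from the descriptions, which together held 3174 tested cDNAs, the shares called higher or lower spread widely around those of all probes. Each list is described by its counts and median with no test of the list. Where a count moved by over 1.5 times under another setting, its lowest and highest values over all settings but median centring stand in brackets. With median centring the larger count fell by over 1.5 times in 41 of 43 lists; fermentation then had 5 falls, glycolysis 9, the dehydrin list 8, metallothioneins 3 rises, homeobox 5, and chromatin and the GRAS list 0 each. For 9 of the cDNAs named below wild type RNA, and for 4 antisense RNA, stood well above background on only 1 of the arrays. Those dim in wild type RNA were isocitrate lyase, beta-amylase, the ABA response factor, the branched-chain transaminase, the peroxidase AK060007, the transferase AK070381, NAM-like AK070982, BEL1-type AK099829 and OsMT-1 AK103445. Those dim in antisense RNA were alcohol dehydrogenase 2, the potassium channel, cinnamoyl CoA reductase and the globulin-like AK063624. The plot of shares by process orders the lists, with metallothioneins, pollen-type and homeobox cDNAs at the top and fermentation, glycolysis and dehydrin-type cDNAs at the bottom.

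**Figure D2:**
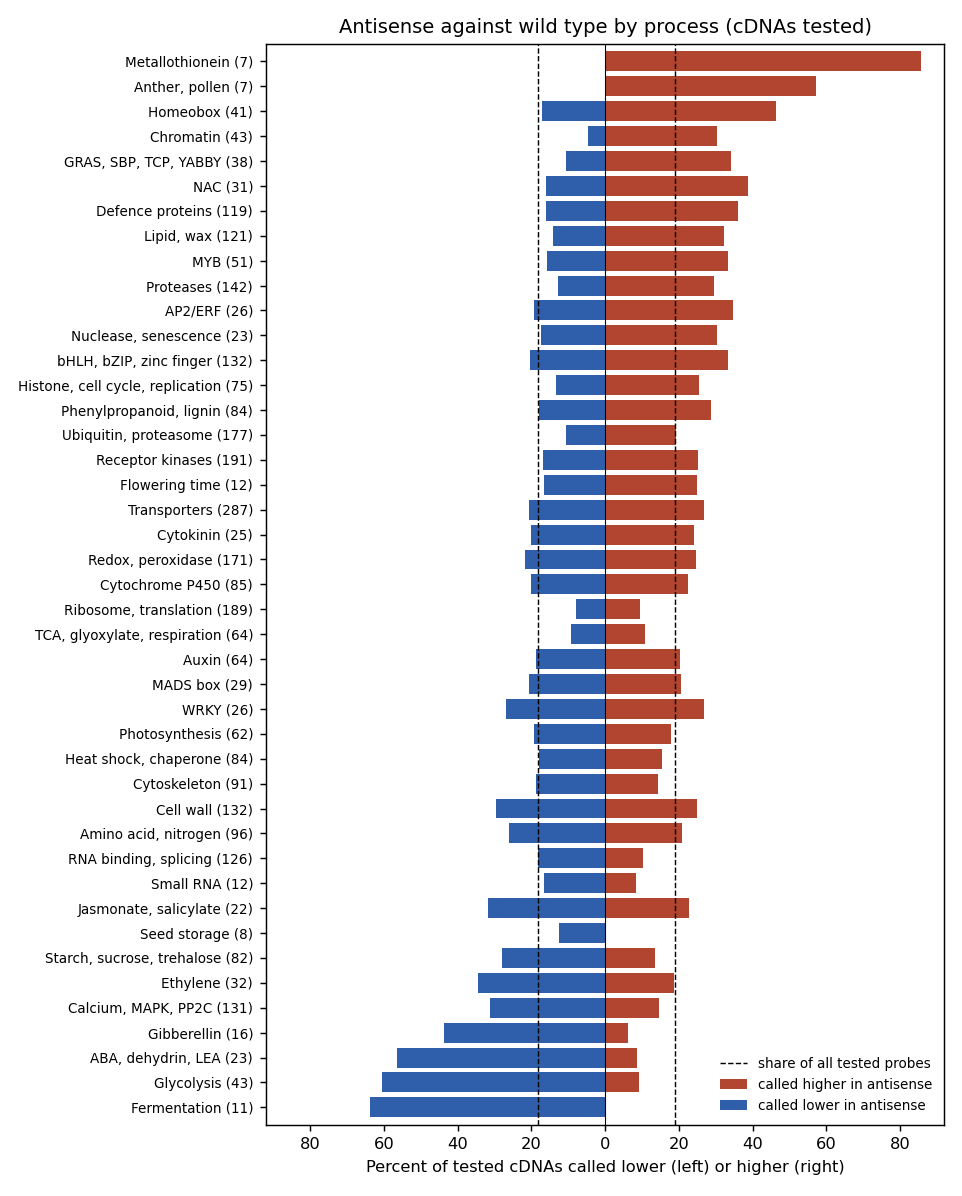
Percent of the tested cDNAs of each process called higher (red, to the right) or lower (blue, to the left) in antisense than in wild type panicles, with the number tested in brackets. Dashed lines mark the shares among all tested probes, 18.9% higher and 18.3% lower; fermentation, glycolysis and the abscisic acid, dehydrin and LEA list exceed the line on the lower side by most.

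Sugar breakdown without oxygen was the process with the largest share of lower cDNAs. Fermentation turns pyruvate, the end product of glycolysis, into ethanol or lactate, which lets sugar breakdown go on when oxygen is short. Of 11 tested cDNAs, 7 fell and 0 rose, with a median of -1.42. Pyruvate decarboxylase 1 (AK100678), the first step towards ethanol, had log2 intensities of 7.67 and 7.54 with antisense RNA, against 16.29 and 15.36 with wild type RNA. The antisense channel was far below the wild type channel on both arrays, and the wild type spot was saturated on 1 of them. Its log2 ratios were -8.61 and -7.82, a mean of -8.22 ± 0.19 (SE, n = 2 arrays, adjusted p = 5.8e-07). A second pyruvate decarboxylase cDNA, described as RRJ2 (AK100501), gave -5.28 and -5.02, and pyruvate decarboxylase 2 (AK101594) gave -3.34 and -2.85. A decarboxylase cDNA described from maize (AK069905) fell least, with -0.41 and -0.63 (adjusted p = 0.0096), a call lost without array 2 (adjusted p = 0.154). Alcohol dehydrogenases make ethanol from acetaldehyde. Alcohol dehydrogenase 2 (AK102799) gave -4.23 and -3.60 and alcohol dehydrogenase 1 (AK069330) gave -3.18 and -2.75. Lactate dehydrogenase (AK103257) gave -1.19 and -1.66. Wild type levels of this list were higher on the antisense than on the dsRNAi arrays, by a median of 1.21. They differed past the test for 6 of 11 cDNAs and transgenic levels for 0, against 32.8% and 2.76% of all tested probes.

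Glycolysis fell with it. Of 43 cDNAs, 26 (60.5%) fell, 18 of them at least 2-fold, and 4 (2 to 5) rose. The median was -0.59, and it was -0.76 on array 1 and -0.52 on array 2. The steepest falls were both cDNAs of pyrophosphate-dependent phosphofructokinase, an enzyme of hexose phosphate metabolism that uses pyrophosphate in place of ATP. They gave -2.89 and -2.66 (AK099939) and -2.75 and -2.49 (AK069095). The rises were small: a glyceraldehyde-3-phosphate dehydrogenase cDNA (AK106824) gave 0.92 and 0.73, and a glucose-6-phosphate isomerase (AK068061) gave 0.57 and 0.73. The wild type difference had a median of 0.37.

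Respiration had fewer called cDNAs for its size. Of 64 cDNAs of the tricarboxylic acid cycle, the glyoxylate cycle and respiration, 7 rose and 6 (3 to 7) fell, shares of 10.9% and 9.38% that lie below those of all probes. One member stood far from the rest. Isocitrate lyase (AK063353), which opens the glyoxylate cycle and serves the conversion of fat to sugar, had log2 intensities of 13.75 and 13.92 with antisense RNA, against 7.07 and 6.19 with wild type RNA. Its ratios were 6.68 and 7.73, with wild type RNA well above background on only 1 array (mean 7.21 ± 0.22, SE, n = 2, adjusted p = 1.1e-06). The wild type level of this cDNA was lower on the antisense than on the dsRNAi arrays, by -3.64 on the log2 scale. NADP-specific isocitrate dehydrogenase (AK072762) fell, with -0.87 and -1.25, as did an NAD-malate dehydrogenase (AK058477), with -0.91 and -0.66.

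Starch and sucrose cDNAs leaned lower. Of 82, 23 fell and 11 (7 to 12) rose, with a median of -0.13. An alpha-amylase (AK073487), which cuts starch into short chains, had log2 intensities of 9.42 and 9.09 with antisense RNA, against 14.63 and 14.68 with wild type RNA. The wild type channel was the brighter on both arrays, with ratios of -5.21 and -5.59 (mean -5.40 ± 0.16, SE, n = 2, adjusted p = 9.3e-07). Its wild type level was 5.58 higher, on the log2 scale, on the antisense than on the dsRNAi arrays. Starch synthase II-3 (AK101978), which lengthens starch chains, gave -2.61 and -2.43. In the other direction, a beta-amylase (AK067249) gave 1.98 and 2.09. A soluble acid invertase (AK072245), which splits sucrose in the vacuole, gave 2.15 and 3.08.

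**Figure D3:**
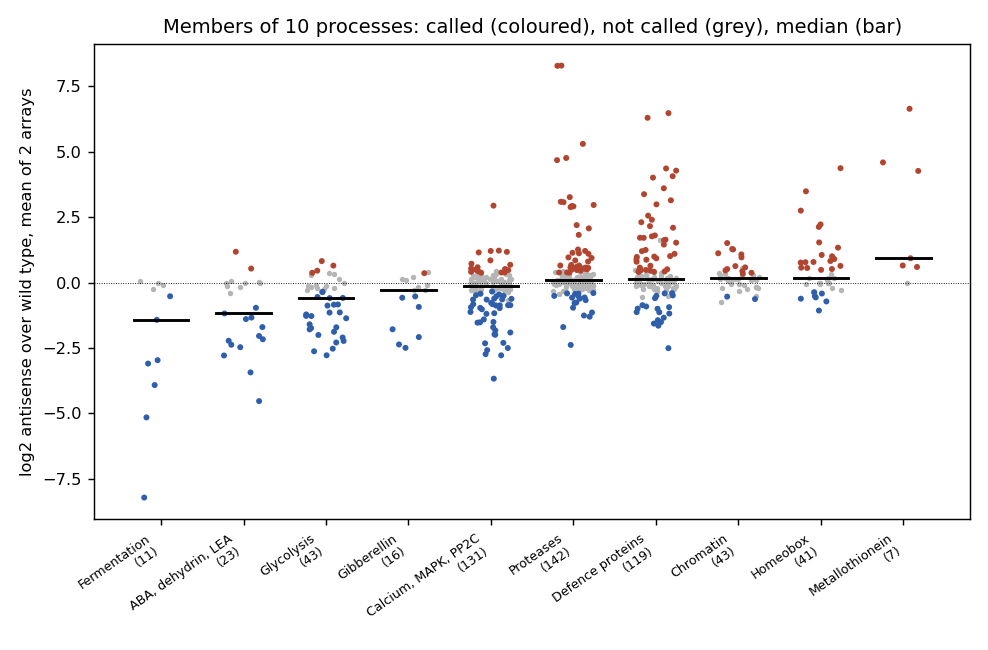
Mean log2 ratio of antisense over wild type (vertical axis) for every tested cDNA of 10 processes, with the number tested in brackets. Red and blue points were called higher and lower, grey points were not called, and bars mark medians: -1.42 for fermentation, -0.59 for glycolysis and 0.93 for metallothioneins, while most members of the large lists lie near 0.

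Dehydrins and other late embryogenesis abundant (LEA) proteins protect cells that lose water, and abscisic acid is the hormone that turns many of them on. Of 23 cDNAs of this group, 13 fell, 12 of them at least 2-fold, and 2 (1 to 2) rose. The median was -1.18. A dehydrin (AK063517) had log2 intensities of 9.79 and 9.89 with antisense RNA, against 14.29 and 14.44 with wild type RNA, and ratios of -4.50 and -4.56. The mean was -4.53 ± 0.11 (SE, n = 2, adjusted p = 5.8e-07). A hydrophobic LEA-like protein (AK063592) gave -3.54 and -3.33. Both called rises were moderate: the regulator described as ABA response element binding factor of wheat (AK070998) gave 1.23 and 1.13, and Asr1 (AK060571), an abscisic acid and stress-inducible protein, gave 0.43 and 0.64. The Asr1 call was lost without array 2 (adjusted p = 0.134). The wild type level of the dehydrin was 4.63 higher on the antisense than on the dsRNAi arrays, and that of the LEA-like protein 3.24 higher. The list's median wild type difference was 0.81. Wild type levels differed past the test for 15 of 23 cDNAs and transgenic levels for 0, against 32.8% and 2.76% of all tested probes. On the dsRNAi arrays the list's median was -0.051.

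Gibberellin, which drives stem and organ elongation, and ethylene, a gaseous hormone of stress and ripening, also leaned lower. Of 16 gibberellin cDNAs 7 fell and 1 (0 to 2) rose (median -0.27). A cDNA described as gibberellin 3beta-hydroxylase (AK072410), the step that makes active gibberellin, gave -2.56 and -2.17. A chitin-inducible gibberellin-responsive protein described as GIGR2 (AK073470) gave -2.69 and -2.29. The one rise was a cDNA like SPY (AK065854), a negative regulator of gibberellin action, with 0.24 and 0.48, with an adjusted p of 0.049, a call lost when either array was left out. The list's median wild type difference was 0.45. Wild type levels differed past the test for 10 of 16 cDNAs, against 32.8% of all tested probes. Of 32 ethylene cDNAs, 11 fell and 6 (3 to 6) rose. 1-aminocyclopropane-1-carboxylate (ACC) oxidase makes ethylene from its precursor. One ACC oxidase cDNA (AK102472) had log2 intensities of 8.00 and 8.17 with antisense RNA, against 13.75 and 13.93 with wild type RNA. Both arrays showed the same gap, with ratios of -5.75 and -5.75 and a mean of -5.75 ± 0.13 (SE, n = 2, adjusted p = 5.8e-07). A second one (AK058296) gave -3.34 and -3.22, and its wild type level differed by only 0.012 between the antisense and dsRNAi arrays. An ethylene-induced esterase (AK061058) rose, with 2.09 and 1.84.

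Auxin and cytokinin cDNAs moved in both directions at shares close to those of all probes. Of 64 auxin cDNAs 13 (7 to 14) rose and 12 (6 to 13) fell. An Aux/IAA cDNA like IAA2 (AK073365), of a family that represses auxin response, gave -3.72 and -3.06. Auxin response factor 10 (AK100322) gave 1.22 and 1.08. Of 25 cytokinin cDNAs 6 rose and 5 fell. Both cDNAs described as response regulator ZmRR9 rose, AK099581 with 2.01 and 1.66 and AK101165 with 1.62 and 1.61. A cytokinin oxidase (AK101022), which breaks cytokinin down, fell, with -2.21 and -2.27. A cis-zeatin O-glucosyltransferase (AK111866), which stores cytokinin as a conjugate, gave -1.74 and -1.51.

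Jasmonate and salicylate genes split by family member. Of 22 cDNAs 5 (3 to 6) rose and 7 fell, and the median wild type difference was -0.20. Allene oxide synthase (AK107161), the first enzyme particular to jasmonate synthesis, gave 4.84 and 4.79, while lipoxygenase LoxB (AK071121), which acts before it, gave -2.90 and -2.94. The cDNAs described as salicylate methyltransferase, which makes the volatile methyl salicylate, went opposite ways. AK070415 had log2 intensities of 9.52 and 9.33 with antisense RNA, against 15.52 and 15.30 with wild type RNA, and ratios of -6.00 and -5.96; its wild type spot was saturated on 1 array. AK062130 gave 2.57 and 3.33, a mean rise of 7.75-fold. Its wild type RNA was not well above background on either array, so that size is uncertain.

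Protein breakdown leaned higher. Of 142 protease and peptidase cDNAs 42 rose (29.6%) and 18 fell, with a median of 0.11. A cysteine protease (AK071495), of a class that breaks down stored and senescing protein, had log2 intensities of 15.20 and 15.72 with antisense RNA, against 7.35 and 6.99 with wild type RNA. The antisense spot was saturated on 1 array. Its ratios were 7.85 and 8.73, with a mean of 8.29 ± 0.20 (SE, n = 2, adjusted p = 5.8e-07), and a second cysteine protease cDNA (AK072235) gave nearly the same, 7.93 and 8.67, with the antisense spot saturated on 1 array. A Lon protease (AK061670), which removes damaged proteins in organelles, fell, with -2.54 and -2.22. The ubiquitin and proteasome list was larger but moved less: of 177 cDNAs 34 (16 to 39) rose and 19 fell, shares of 19.2% and 10.7%. An SKP1 cDNA (AK073278), of a subunit of ubiquitin ligases, gave 3.44 and 3.81. A ubiquitin-conjugating enzyme (AK066799) gave -2.31 and -2.48. Wild type levels of the cysteine protease were lower on the antisense than on the dsRNAi arrays, with a difference of -4.98, and those of SKP1 too, with -2.95.

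Genes linked to nutrient recovery held some of the widest gaps. Nuclease I (AK059608), which digests nucleic acids in senescing tissue, had log2 intensities of 12.83 and 12.41 with antisense RNA, against 7.27 and 6.55 with wild type RNA, and ratios of 5.56 and 5.85. Of the 23 nuclease and senescence cDNAs 7 rose and 4 fell, and the median was 0.045 and close to that of all probes. The falls included a cDNA like senescence-associated protein 5 (AK110630), with -1.10 and -1.45. Among 96 cDNAs of amino acid and nitrogen metabolism 20 (12 to 23) rose and 25 fell. An aminotransferase-like protein (AK100259) gave 5.84 and 6.34 and a branched-chain amino acid transaminase (AK105963) gave 5.06 and 5.95. Glutamate decarboxylase (AK071556), which makes gamma-aminobutyric acid, had log2 intensities of 10.70 and 10.14 with antisense RNA, against 16.46 and 15.30 with wild type RNA, saturated on 1 array. Its ratios were -5.76 and -5.16. Alanine aminotransferase (AK102488), which links alanine to pyruvate, gave -3.24 and -2.43.

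Of 287 transporter cDNAs 77 rose and 59 fell. Peptide transporters went both ways, with 3.02 and 3.72 for OsPTR1 (AK064899) and -5.31 and -4.93 for a second one (AK072119). An ABC transporter (AK067639) gave 3.16 and 3.84, a mean rise of 11.3-fold. Its wild type RNA was not well above background on either array, so that size is uncertain. An inwardly rectifying potassium channel (AK100808) gave -3.87 and -2.53.

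**Figure D4:**
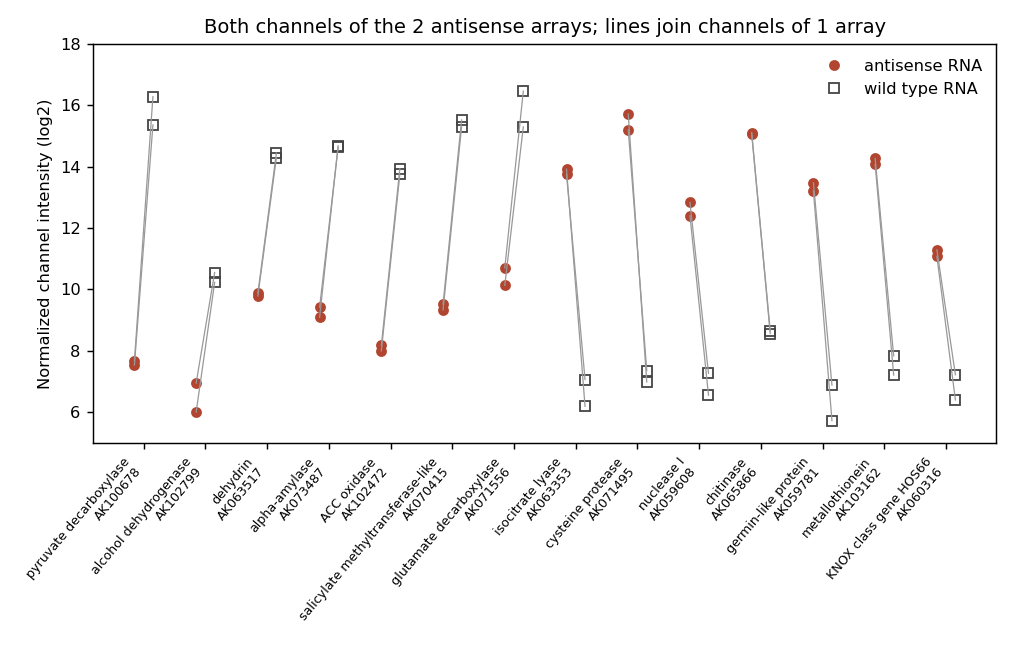
Normalized log2 intensity (vertical axis) of 14 cDNAs on both antisense arrays, with antisense RNA as filled circles to the left and wild type RNA as open squares to the right, and a line for each array. The first 7 cDNAs have the lower intensity in antisense RNA and the other 7 in wild type RNA, on both arrays; pyruvate decarboxylase shows 7.67 and 7.54 in antisense against 16.29 and 15.36 in wild type RNA.

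Metallothioneins, small cysteine-rich proteins that bind metals and are abundant in ageing and stressed plant tissue, had the largest share of higher cDNAs. Of 7 tested 6 rose and 0 fell, with a median of 0.93. An OsMT-1 cDNA (AK103162) had log2 intensities of 14.27 and 14.07 with antisense RNA, against 7.84 and 7.21 with wild type RNA. Its ratios were 6.43 and 6.86 (mean 6.65 ± 0.13, SE, n = 2, adjusted p = 5.8e-07). A second OsMT-1 cDNA (AK103445) rose far less, with 0.94 and 0.92, so probes described as the same gene did not give 1 size. Metallothionein-like cDNAs AK058313 and AK062653 gave 4.85 and 4.34 and 4.30 and 4.24, and the antisense spot of the first was saturated on 1 array. The remaining rises, AK058529 with 0.44 and 0.87 and OsMT-2 (AK069318) with 0.84 and 0.35, had unequal arrays, and the antisense spot of AK058529 was saturated on 1 of them. The first lost its call without array 2 (adjusted p = 0.168) and the second without array 1 (adjusted p = 0.253). Wild type levels were lower on the antisense than on the dsRNAi arrays for most of them, with a median difference of -1.71.

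Defence proteins, which attack or inhibit pests and microbes, also leaned higher. Of 119 cDNAs 43 (28 to 48) rose (36.1%), 27 of them at least 2-fold, and 19 fell. A chitinase (AK065866), which cuts the chitin of fungal walls, had log2 intensities of 15.07 and 15.11 with antisense RNA, against 8.57 and 8.65 with wild type RNA, and ratios of 6.50 and 6.46. A Bowman-Birk type trypsin inhibitor (AK064050), which blocks digestive proteases, gave 6.08 and 6.53. The falls were led by both cDNAs like a beta-glucanase of Arabidopsis, with -2.51 and -2.50 (AK073663) and -1.73 and -1.57 (AK110902). The wild type level of the chitinase was lower on the antisense than on the dsRNAi arrays, with a difference of -5.39, and that of the inhibitor too, with -5.02. The list's median wild type difference was -0.25.

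Redox and heat shock lists moved without a common direction. Of 171 redox and peroxidase cDNAs 42 rose and 37 fell. Germin-like protein 2 (AK059781), of a family of secreted wall proteins, gave 6.59 and 7.48, a mean rise of about 129-fold. Its wild type RNA was not well above background, so that size is uncertain. A peroxidase (AK060007) gave 4.27 and 4.90 and another (AK069456) gave -2.19 and -2.43. A thioredoxin (AK105051), which keeps protein thiols reduced, fell, with -2.63 and -2.58. Of 84 heat shock and chaperone cDNAs 13 (8 to 16) rose and 15 (9 to 20) fell. The falls were led by a small heat shock protein (AK063618), with -2.26 and -2.10, and a heat shock factor (AK072571), with -1.72 and -1.92. The rises were led by another heat shock factor (AK063952), with 1.47 and 1.53.

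Cell wall cDNAs moved in both directions. Of 132 tested, 39 fell and 33 rose. A xyloglucan endotransglycosylase (AK070734), which loosens and rejoins the wall's cross-links during growth, gave -4.02 and -3.86. A pectin esterase (AK058651), which changes the charge of pectin, gave -2.36 and -2.53. An arabinoxylan arabinofuranohydrolase (AK061612), which trims side chains of grass walls, rose, with 2.95 and 3.19. Of 84 phenylpropanoid and lignin cDNAs 24 (15 to 25) rose and 15 fell. Cinnamoyl CoA reductase (AK064401), the entry to lignin units, gave -5.62 and -4.78, and phenylalanine ammonia-lyase (AK067801), the first step of the pathway, gave -4.25 and -3.49. A cDNA like a hydroxycinnamoyl/benzoyltransferase (AK070381) gave 3.37 and 3.98. The wild type difference of the phenylpropanoid list had a median of -0.29. The wild type level of the reductase was 4.44 higher on the antisense than on the dsRNAi arrays.

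Lipid cDNAs leaned higher, with 39 of 121 risen and 17 fallen. A fatty acid alpha-oxidase (AK100592) was 16.2-fold higher by the mean of the arrays and a GDSL-motif lipase (AK110292) 14.4-fold higher. In both, wild type RNA was not well above background, so the sizes are uncertain. A fatty acid elongase (AK067907), of the enzymes that build wax and cuticle chains, gave -4.75 and -4.72. Stearoyl-ACP desaturase (AK101524), which makes the first double bond of plastid fatty acids, gave -3.14 and -3.27, and its wild type level differed by 0.40 between the antisense and dsRNAi arrays. Of 85 cytochrome P450 cDNAs 19 (9 to 25) rose and 17 fell. One P450 (AK105519) gave 4.01 and 4.74, and the sterol demethylase CYP51 (AK107185) gave -3.36 and -3.45.

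Among regulators, homeobox genes leaned higher most. KNOX and BEL1-type proteins pair with each other, and class I KNOX genes keep meristems active. Of 41 homeobox cDNAs 19 rose (46.3%), 9 of them at least 2-fold, and 7 (2 to 7) fell. The median was 0.19. HOS66 (AK060316), a class 2 KNOX gene, had log2 intensities of 11.29 and 11.08 with antisense RNA, against 7.22 and 6.40 with wild type RNA. Its ratios were 4.07 and 4.68 (mean 4.38 ± 0.16, SE, n = 2, adjusted p = 1.6e-06). BEL1-type cDNAs followed, with 3.14 and 3.85 for AK099829 and 2.20 and 2.25 for AK070465, while another cDNA with that description (AK070543) gave unequal arrays, 0.29 and 1.37, and lost its call without array 2 (adjusted p = 0.374). A homeobox cDNA like ATH1 (AK109849) gave 2.66 and 2.85. Hos3 (AK111877) gave 2.01 and 2.25, HOS9 (AK111878) gave 1.29 and 1.38, and a KNOTTED1-like cDNA (AK107637) gave 0.78 and 1.23. A cDNA like the knotted1-interacting protein of maize (AK064665) gave 1.11 and 0.70. Homeodomain leucine zipper genes went both ways, with 0.71 and 1.40 for an Oshox6 cDNA (AK109177) and -1.27 and -0.86 for Oshox5 (AK058364). A member of this class like CPHB-7 (AK073446) gave 1.54 and 1.53. The other 8 rises had means between 0.489 and 0.788, and the 6 falls besides Oshox5 between -0.72 and -0.367. One of these falls, not counted among the named cDNAs, was described as knotted-like, with -0.78 and -0.25 (adjusted p = 0.027). The KNOX-type cDNAs thus did not all rise. The wild type difference of HOS66 was -2.67, and the list's median was -0.31.

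MADS box genes, which set the identity of floral organs and meristems, split evenly. Of 29 cDNAs 6 rose and 6 fell, 20.7% each way, close to the 18.9% and 18.3% of all tested probes. OsMADS5 (AK064184) gave 1.23 and 1.69 (mean 1.46 ± 0.15, SE, n = 2, adjusted p = 0.00018). A MADS box-like cDNA (AK111859) gave 1.00 and 1.05, and OsMADS8 (AK072867), of the group needed for inner floral organs, gave 0.49 and 0.32. A wheat WAG-like cDNA (AK111723), of the group that specifies stamens and carpels, gave 0.85 and 0.68. The remaining rises were a MADS box-like cDNA (AK069317), with 0.87 and 0.67, and a cDNA like CDM51 of Chrysanthemum (AK070205), with 0.89 and 0.47. In the other direction, both cDNAs described as FDRMADS6 fell. RefSeq lists FDRMADS6 and OsMADS14 as names of 1 gene, a gene of the group that marks the switch to flowering. They gave -1.79 and -0.82 (AK069331) and -0.75 and -0.51 (AK061899), sizes that differ between the arrays more for the first. The lowest MADS box-like cDNA (AK100227) gave -1.42 and -1.70, and another (AK066160) had unequal arrays, -1.44 and -0.46. FDRMADS8 (AK062063) gave -1.03 and -0.68 and the cDNA described as MADS4 (AK100233) gave -0.37 and -0.45. The calls of OsMADS8 and MADS4 were lost when either array was left out, and those of AK061899 (adjusted p = 0.073), AK066160 (0.116) and AK070205 (0.112) without array 1. The median wild type difference of the list was 0.28. Of 12 flowering time cDNAs, 3 (1 to 3) rose and 2 (1 to 2) fell, all by less than 2-fold. A cDNA like FT of Arabidopsis (AK106643), the counterpart of Hd3a there, rose most, with 0.90 and 1.04 (adjusted p = 0.00043). A second one (AK068736) gave 0.47 and 0.51, a mean of about 1.4-fold higher, with wild type RNA not well above background. It lost its call when either array was left out. Hd3a (AK100491), the mobile flowering signal of rice, gave 0.56 and 0.36 (adjusted p = 0.018). The gigantea homologue (AK072166), a clock gene, gave -0.64 and -0.81, and a cDNA like terminal flower 1 (AK107056) gave -0.31 and -0.48. The Hd3a call was lost without array 1 (adjusted p = 0.248) and that of the terminal flower 1-like cDNA when either array was left out.

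The GRAS, SBP, TCP and YABBY list, regulators of meristems and organ shape, had 13 (6 to 13) rises and 4 falls among 38 cDNAs (median 0.19). An SBP-domain cDNA (AK063561) gave 1.55 and 1.51 and a TCP factor of the PCF group (AK064240) gave -1.33 and -1.18. NAC factors had 12 rises and 5 falls among 31. NAM-like cDNAs gave 4.43 and 5.15 (AK070982) and 3.81 and 4.08 (AK068776), and OsNAC4 (AK073848) gave -4.24 and -4.26, so the family held wide gaps both ways. MYB factors had 17 rises and 8 (5 to 9) falls among 51, led by a MYB36-like cDNA (AK108452) with 2.46 and 2.72. WRKY factors, many of which act in defence, had 7 (3 to 7) rises and 7 falls among 26. A WRKY71-like cDNA (AK108745) gave 2.13 and 2.54 and a WRKY50-like cDNA (AK108522) gave -2.83 and -2.52. The median wild type difference of the WRKY list was 0.22. AP2/ERF factors had 9 rises and 5 (3 to 5) falls among 26. The bHLH, bZIP and zinc finger list had 44 (29 to 45) rises and 27 falls among 132.

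Cell division, chromatin and gene expression were measured by 6 further lists. Of 75 histone, cell cycle and replication cDNAs 19 rose and 10 fell. D-type cyclins, which start the cell cycle, rose, with 2.35 and 2.81 (AK063671) and 2.18 and 2.35 (AK103499), and a histone H1 cDNA (AK099211) fell, with -1.09 and -1.40. Chromatin cDNAs had 13 (7 to 15) rises and 2 (1 to 4) falls among 43, 5 of the rises at least 2-fold. The cDNA like the maize chromatin assembly protein NFD106 (AK069900) gave 1.37 and 1.65, and a cDNA like a SWI/SNF remodeller (AK102094) gave 1.15 and 1.42. Ribosomal and translation cDNAs had the smallest share called of all lists with over 20 cDNAs, with 18 (4 to 21) rises and 15 (7 to 17) falls among 189, 9.52% and 7.94%. An exception was a cDNA like the translation initiation factor EIF-6 (AK103139), with -4.76 and -3.88. RNA binding and splicing cDNAs had 13 (6 to 14) rises and 23 (13 to 28) falls among 126. Cytoskeleton cDNAs had 13 (8 to 15) rises and 17 (9 to 20) falls among 91, with an alpha-tubulin (AK071837) at 1.98 and 1.92. Of 12 small RNA cDNAs 1 (1 to 2) rose, a HEN1 homologue (AK111609) with 1.01 and 0.80, and 2 (1 to 5) fell. The largest change of this list was a fall, with -1.41 and -1.36, in a cDNA described as Argonaute, not counted among the named cDNAs. The list's median wild type difference was 0.29. HEN1 methylates small RNAs in Arabidopsis.

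Signalling cDNAs were described by kind. Receptor kinases had 48 rises and 32 (20 to 36) falls among 191, shares of 25.1% and 16.8%. Over all tested probes the shares were 18.9% and 18.3%. The calcium, MAP kinase and phosphatase 2C list leaned lower, with 41 falls (31.3%) and 19 (9 to 21) rises among 131 and a median of -0.12. A type IIB calcium ATPase (AK100415), which pumps calcium out of the cytosol, gave -3.90 and -3.44, and a calmodulin-binding protein (AK068628) gave -2.91 and -2.65. The largest rise of the list was a MAPK-like cDNA (AK067447), with 2.75 and 3.14. For the receptor kinase drpk1 (AK103700) the ratios were 2.75 and 3.04, and for a receptor-like kinase described from Arabidopsis (AK063805) they were -2.62 and -2.40.

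Lists of tissue markers were also described. Of 29 tested MADS box and 41 homeobox cDNAs, 28 and 36 were well above background in both channels of both arrays. So were 15064 of all 18000 tested probes and 55 of 62 photosynthesis cDNAs, so these counts do not by themselves identify the tissue. Photosynthesis cDNAs, which would mark green tissue, had 11 (6 to 12) rises and 12 falls among 62 and a median of 0.092. By the median, both channels of this list were lower on the antisense than on the dsRNAi arrays. Transgenic levels differed for 30 of 62, with a median of -0.66, and wild type levels for 38, with a median of -0.61. Over all tested probes the shares were 2.76% and 32.8%. Of 14 anther and pollen cDNAs on the array, 7 could be tested, 4 (1 to 4) rose and 0 fell (median 0.54). The rises were led by pollen allergen-like cDNAs, with 2.14 and 2.35 (AK070662) and 0.78 and 0.50 (AK067214), the second a call lost without array 1 (adjusted p = 0.0838). Of 15 seed storage cDNAs 8 could be tested, 0 (0 to 1) rose and 1 (0 to 1) fell, a globulin-like cDNA (AK063624) with unequal arrays, -2.46 and -1.10. The part of these markers in the other results was not tested.

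A count of the words in the descriptions gave another view without lists. Among words with at least 20 tested probes, the largest shares called higher were for aspartic (55%), transfer (54.5%), leucine (48%), lipase (48%) and the species word lotus (45%). The largest shares called lower were for udp-glucose (45.5%), glutamate (41.7%), the species words arietinum (40.6%) and communis (40%), and kinase-like (39.5%). Species words tell which plant the nearest named relative came from. Among the 4395 tested cDNAs described only as an unknown expressed protein, 677 rose (15.4%) and 714 fell (16.2%), both below the shares of all probes.

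The effect of the antisense construct was last set against that of dsRNAi. The labels do not say whether the wild type pools were the same. The ratios differed for 2962 probes (16.5%) in limma's test of the difference, 1822 of them higher and 1140 lower with antisense. Each ratio difference is the transgenic difference less the wild type difference on the same arrays, so its terms are no separate observation. Among these probes the wild type term was past the test for 2615 (88.3%) and the transgenic term for 222 (7.5%). Over all tested probes those shares were 32.8% and 2.76%. The share of members whose ratio differed was 14 of 23 for dehydrin-type cDNAs, 7 of 11 for fermentation, 5 of 7 for metallothioneins and 17 of 41 for homeobox genes. It was 3 of 43 for chromatin and 0 of 12 for small RNA cDNAs. Fermentation had a median of -1.42 with antisense and -0.68 with dsRNAi, and glycolysis -0.59 and -0.50. MADS box cDNAs were called 6 higher and 6 lower with antisense, and 14 higher and 2 lower with dsRNAi, where 11.2% of all probes were called higher and 14.6% lower.

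**Figure D5:**
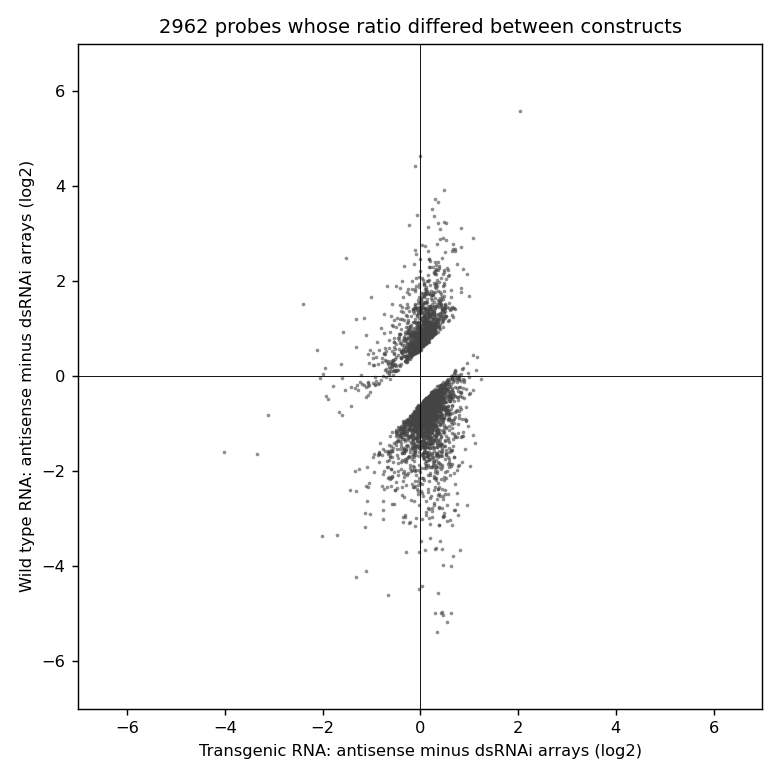
For the 2962 probes whose ratio differed between the constructs, the difference in transgenic RNA (horizontal axis) and in wild type RNA (vertical axis) between antisense and dsRNAi arrays, in log2 units. Both axes are terms of the ratio difference by which the probes were chosen. The points spread mainly up and down, with wild type differences past the test for 2615 of them and transgenic differences for 222.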

How the data were processed

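RNA of RFL antisense and wild type panicles was, per the labels, labelled with Cy3 and Cy5 and hybridised together on 2 arrays, with RFL dsRNAi against wild type on 2 others. Mean spot intensities and median background intensities come from Agilent Feature Extraction as the authors ran it, 8.1.1.1 for antisense and 9.1.3.1 for dsRNAi arrays, per the file headers. The deposited log10 ratios of red over green had, per the file headers, background and dye correction applied in it. The deposited log2 ratios of the series matrix matched them at r = 0.959, 0.975, 0.839 and 0.852 (antisense arrays 1 and 2, dsRNAi arrays 1 and 2), which gave scale and direction; their medians were -0.0046, -0.0366, 0.0842 and 0.0521 and their centring stays unknown. Other flags in the files mark spots above background, saturated or outlying, as deposited.

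Background was corrected by normexp (offset 50) in limma and dye bias by loess within arrays, control spots at weight 0 and outlier spots left out. The label fields were followed for the dyes, though the labelling text of the swapped arrays names the other dye. Every ratio was set as transgenic over wild type. The filter kept probes with either channel well above background on 2 or more of the 4 arrays. Limma (version 3.58.1, R 4.3.3, statmod 1.5.0) fitted 1 coefficient per construct over the 4 arrays with eBayes and Benjamini-Hochberg adjustment over all probes tested. SE are moderated. Called probes included 247 with wild type and 94 with antisense RNA not well above background on both arrays. Among named cDNAs these have a fold: the bright channel's mean over the dim channel's, after Aquantile. In the dim channel each array's value is raised, where lower, to its dimmest signal that is well above background. This fold is a mean over the arrays and not a lower limit, and it mostly equalled the plain mean ratio. Aquantile also gave the channel intensities, and limma's lmscFit the differences between channels. On simulated ratios of 18000 probes all 200 probes changed by 1 or 2 (log2) were called, with 23 false calls. The simulation drew independent noise from the fitted spread, without intensities or dye bias, so it cannot test the normalization.

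Lists were made by words in the descriptions. Named are up to 2 of the largest called rises and falls of a list, and called members of the fermentation, metallothionein, MADS box and flowering time lists and part of those of the homeobox list. Some auxin cDNAs that this rule would name are not reported here. Members and lists were chosen with earlier results of these data known. Accessions matched 0 entries of the RefSeq rice table, so file names of genes were kept. 0 columns stayed unmapped. Alternatives were another offset, the deposited ratios, median centring, other filters, other fits and leaving out arrays. Python 3.11.15, pandas 2.3.3 and matplotlib 3.10.9 were used.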

Additional observations from a re-analysis of the deposited data

Results flagged for a closer look

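Of the 135 cDNAs named above, 92 had an antisense ratio that differed from the dsRNAi ratio in limma's test of the difference (adjusted p below 0.05). Their values are given here as antisense minus dsRNAi, on the log2 scale. In 80 of them both constructs had the same sign and the antisense ratio was the larger, in 10 the signs differed, and in 2 the antisense ratio was the smaller. Wild type levels differed between the arrays of the constructs for 88 of them and transgenic levels for 10. Each value is the transgenic difference between the arrays of the constructs less the wild type difference. These terms were -0.010 and 4.63 for the dehydrin (AK063517), and 0.33 and -5.39 for the chitinase (AK065866). For alpha-amylase (AK073487) they were 2.05 and 5.58. The values below are therefore not differences between the transgenic panicles alone. The construct, the scan day and the extraction software version cannot be told apart here, and the cause of the wild type difference was not tested.

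In fermentation the difference was -2.11 for pyruvate decarboxylase 1 (AK100678), -2.02 for the RRJ2 cDNA (AK100501) and -1.64 for pyruvate decarboxylase 2 (AK101594). It was -1.34 for alcohol dehydrogenase 1 (AK069330), -2.23 for alcohol dehydrogenase 2 (AK102799) and -1.00 for lactate dehydrogenase (AK103257). The phosphofructokinase cDNAs differed by -1.44 (AK069095) and -1.50 (AK099939), and isocitrate lyase (AK063353) by 3.93. For starch and sugar enzymes it was -3.53 for alpha-amylase (AK073487), 0.80 for beta-amylase (AK067249) and 1.35 for acid invertase (AK072245).

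The dehydrin (AK063517) differed by -4.64, having a dsRNAi ratio of 0.11, the LEA-like protein (AK063592) by -2.88 and the ABA response factor (AK070998) by 0.66. Hormone cDNAs differed by -1.14 for ACC oxidase (AK102472), 2.17 for the ethylene-induced esterase (AK061058) and -1.66 for GIGR2 (AK073470). Auxin cDNAs differed by -3.28 for the IAA2-like cDNA (AK073365) and 0.72 for auxin response factor 10 (AK100322). Cytokinin cDNAs differed by 0.73 (AK099581) and 0.93 (AK101165) for the response regulators and by -0.91 for cytokinin oxidase (AK101022). For jasmonate and salicylate it was 2.72 for allene oxide synthase (AK107161), -1.18 for lipoxygenase (AK071121) and 1.73 for a salicylate methyltransferase (AK062130).

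Cysteine protease cDNAs differed by 5.60 (AK071495) and 5.39 (AK072235), Lon protease (AK061670) by -1.65 and nuclease I (AK059608) by 3.58. SKP1 (AK073278) differed by 3.41 and the ubiquitin-conjugating enzyme (AK066799) by -1.21. In nitrogen metabolism it was 4.46 for the aminotransferase-like protein (AK100259), 3.05 for the branched-chain transaminase (AK105963), -1.61 for glutamate decarboxylase (AK071556) and -1.91 for alanine aminotransferase (AK102488). Among transporters it was 2.84 for OsPTR1 (AK064899), 2.72 for the ABC transporter (AK067639) and -1.88 for the potassium channel (AK100808).

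The chitinase (AK065866) differed by 5.72, the trypsin inhibitor (AK064050) by 5.47 and a glucanase (AK110902), lower with dsRNAi than with antisense, by 0.65. Metallothioneins differed by 3.67 (AK103162), 2.45 (AK058313) and 2.40 (AK062653). In AK103445 and OsMT-2 (AK069318), with 1.52 and 1.19, the constructs had opposite signs. The germin-like protein (AK059781) differed by 5.41, the peroxidase AK060007 by 3.36 and thioredoxin (AK105051) by -1.51. The small heat shock protein (AK063618) differed by -0.74 and the heat shock factor AK072571 by -0.90.

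In wall and phenylpropanoid synthesis the difference was 1.58 for the arabinofuranohydrolase (AK061612), -4.54 for cinnamoyl CoA reductase (AK064401), -1.88 for phenylalanine ammonia-lyase (AK067801) and 1.96 for the transferase AK070381. Lipid enzymes differed by 3.04 for alpha-oxidase (AK100592), 3.19 for the lipase (AK110292) and -0.95 for the elongase (AK067907). The P450 cDNAs differed by 2.90 (AK105519) and -0.95 (AK107185).

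Among homeobox cDNAs it was 2.96 for HOS66 (AK060316), 2.67 (AK099829) and 1.55 (AK070465) for BEL1-type cDNAs, and 1.96 for the ATH1-like cDNA (AK109849). Hos3 (AK111877) differed by 1.37, HOS9 (AK111878) by 1.02 and the CPHB-7-like cDNA (AK073446) by 1.63. MADS box cDNAs differed by 0.61 (AK111859), -0.72 for OsMADS8 (AK072867), -0.73 for FDRMADS6 (AK061899) and -1.24 for MADS4 (AK100233). In the last 2 the dsRNAi ratio was above 0 and the antisense ratio below it. NAC cDNAs differed by 3.68 (AK070982), 2.24 (AK068776) and -2.01 for OsNAC4 (AK073848). The SBP cDNA (AK063561) differed by 1.08, the MYB36-like cDNA (AK108452) by 2.08, and the WRKY cDNAs by 2.52 (AK108745) and -0.77 (AK108522).

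The D-type cyclins differed by 1.56 (AK063671) and 1.32 (AK103499), and histone H1 (AK099211) by -1.32. It was 0.94 for NFD106 (AK069900), 1.78 for alpha-tubulin (AK071837) and -2.34 for the EIF-6-like cDNA (AK103139). Kinases differed by 2.32 for drpk1 (AK103700), -2.76 for the receptor-like kinase AK063805 and 1.67 for the MAPK-like cDNA (AK067447). The calmodulin-binding protein (AK068628) differed by -1.51 and the calcium ATPase (AK100415) by -0.88. Of the markers, the pollen allergen-like AK070662 differed by 1.53 and the globulin-like AK063624 by -1.38.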

How the results depend on the processing

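The number of probes called higher and lower and the number that differed from dsRNAi were recomputed under 15 other settings, 1 of them (only probes above background in both channels on both antisense arrays) chosen after seeing the data. With median centring in place of loess, 465 were called higher, 372 lower and 32 different from dsRNAi; the centring ran over all spots but controls, the medians over tested probes on the antisense arrays were then 0.24 and -0.20, and the cause of the lower counts was not tested. Averaging the antisense arrays into 1 value left 2213 higher, and the series matrix values left 1934 different from dsRNAi. Other counts stayed within 1.5 times those reported. Leaving out 1 array at a time gave 2298 to 3673 higher, 2309 to 3644 lower and 2499 to 2736 different from dsRNAi.

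Of the 135 named cDNAs, 85 kept sign and call in every setting that tested them, and 120 in all but median centring; 0 changed sign past the threshold. Calls were lost for 11 without array 1 and 9 without array 2, with the sign kept. More falls than rises or more rises than falls turned round in at least 1 setting for the auxin, P450, redox, respiration, ribosome, cytoskeleton, small RNA and ubiquitin lists. No paired analysis was possible because the labels give no replicate numbers; each ratio already pairs the RNAs of 1 array. The settings are not separate checks. Without 1 dsRNAi array the spread came from the antisense arrays alone, and without 1 antisense array from the dsRNAi arrays alone. The number of arrays limits the precision.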
